A study of Mus musculus with 6 samples.

Results

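The genes described here are 33 enzymes and carriers of the citric acid cycle and of the routes by which pyruvate, glutamine-derived glutamate and cytosolic reducing power reach it. They were chosen by symbol, as pyruvate entry genes, cycle enzymes without complex II, and glutamate and malate shuttle genes, and all 33 were found among the 19617 rows of the deposited expression table. RNA had been sequenced from cultured cells of Lewis lung carcinoma, a mouse tumour line that arose in the lung. The cells carried a lentiviral hairpin RNA (shRNA) that was either scrambled (3 libraries, labelled wild type for Urod) or directed at Urod (3 libraries, labelled Urod knockdown). Both groups received doxycycline at 2 ug/mL for 4 days to induce the hairpin, so the controls carry the agent as well. Whether each population is a clone or a pool, and whether replicates came from separate cultures, is not given in the labels used here, so the spread behind each p-value may be technical. With these groups alone, an effect of losing Urod and any other difference between the populations cannot be told apart.

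The citric acid cycle oxidises acetyl units in the mitochondrial matrix and hands the electrons to the respiratory chain. Pyruvate enters the matrix through a carrier and is then oxidised by the pyruvate dehydrogenase complex or carboxylated to oxaloacetate, while glutamine carbon enters as 2-oxoglutarate. One intermediate, succinyl-CoA, is joined to glycine in the first step of heme synthesis, the pathway in which the Urod enzyme, uroporphyrinogen decarboxylase, acts further on.

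Values are TPM, abundance per unit of transcript length as a share of each library, so a level is per length, while the absolute read depth is unknown. Levels of genes with near-identical copies are uncertain: Gapdh, which has many pseudogenes, was listed at 6.68 to 12.3 TPM. Urod stood between 89.9 and 95.2 TPM in scrambled libraries and between 5.21 and 5.71 TPM in Urod shRNA libraries. Across genes, Pearson's r was 0.996 to 0.998 for library pairs within a group and 0.958 to 0.960 for pairs between groups. Among marker genes of the line, the keratin gene Krt8 (315 TPM in scrambled libraries) and the intermediate filament gene Vim (7812 TPM) were abundant. The summed level of 4 lung epithelial markers, none of which reached the mean of 1 TPM needed for testing, was at most 1.62 TPM in any library, and the epithelial cadherin gene Cdh1 was under 1 TPM in each. Of the epithelial list 2 of 6 genes were tested, of which Krt8 rose and Epcam fell, the latter tested only because of its scrambled level (1.96 TPM, against 0.943 TPM). The list's summed level was 305 to 331 TPM in scrambled and 447 to 470.3 TPM in Urod shRNA libraries. Almost all of it was Krt8, with means of 315 and 459 TPM, so the sum describes that gene alone. Of 6 mesenchymal markers 3 were tested and all 3 fell, and the list's sum went from 9560.4 to 9633 TPM down to 4756 to 4858 TPM. Most of that sum was Vim, with means of 7812 and 3861 TPM. Of 11 leukocyte and endothelial markers 4 were tested, 2 up and 2 down, with sums of 116 to 118 TPM and 64.1 to 66.9 TPM. No marker that was in the table stood at 0 in every library, but the pan-leukocyte gene Ptprc never exceeded 0.0792 TPM. The 2 that fell, the myeloid genes Lyz2 (49.2 to 11.4 TPM) and Cd68 (53.2 to 30.8 TPM), made up most of the sum. The 2 that rose were Cd14, also a myeloid gene (8.37 to 12.9 TPM), and the endothelial gene Pecam1 (4.74 to 7.37 TPM). The part of these markers in the results that follow was not tested. In bulk RNA, fewer cells of a type and less RNA per cell cannot be told apart.

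The 33 transcripts moved in both directions, and by moderate amounts. Of the 33, 15 rose and 8 fell, and 10 did not pass the test (limma on log2(TPM + 1), Benjamini-Hochberg adjusted p under 0.05 over all 11980 genes tested). That is 69.7% of the members, against 74.7% of all genes tested, of which 38.5% rose and 36.2% fell. The share of members called was thus near the background. Their median log2 change was 0.09, against 0.02 for all genes tested, and called changes had a median size of 0.42 among members and 0.44 among all genes. For 26 of the 33 no scrambled value fell within the range of the Urod shRNA values, against 77.3% of all genes: 16 members were higher (39.8% of all genes) and 10 lower (37.5%). All 33 passed the filter of a mean of 1 TPM, and 30 of them lay above the median gene tested. Summed over the members, 5088 to 5260.0 TPM in scrambled libraries stood against 5490.1 to 5523 TPM in Urod shRNA libraries. The authors' deposited table, made from the same libraries, called the same 23 members with the same signs, and called 75.3% of the genes tested here.

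**Figure D1:**
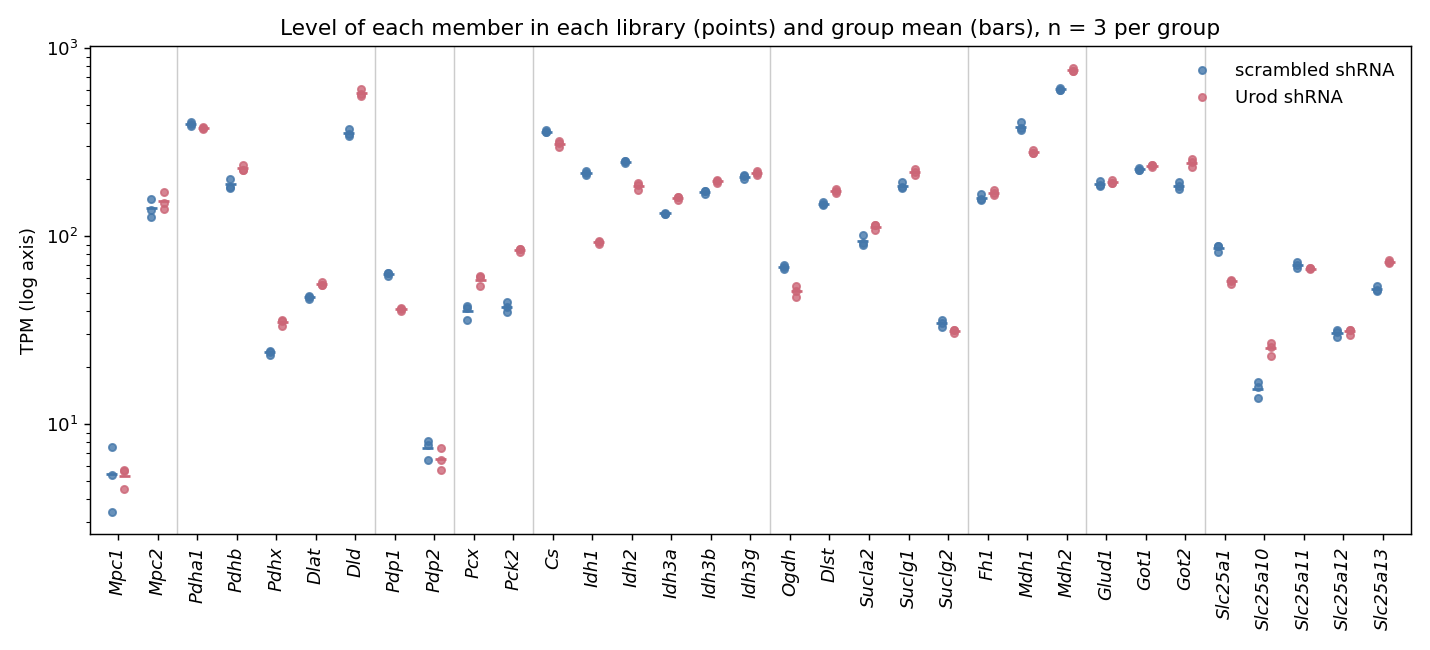
Level of each of the 33 members in TPM on a log axis, in order of role, with a point for each library and a bar for the group mean (3 libraries per group). The lowest are Mpc1 and Pdp2 and the highest is Mdh2, while Idh1, Pck2, Dld and Slc25a10 show the widest gaps between the groups.

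Neither gene of the pyruvate carrier passed the test. The mitochondrial pyruvate carrier is a complex of Mpc1 and Mpc2, each without transport activity alone. Mpc2 stood at 157, 126 and 138 TPM in scrambled libraries and at 171, 139 and 150.4 TPM in Urod shRNA libraries. These ranges overlap, and the log2 change was 0.13 (95% interval -0.10 to 0.36; limma, adjusted p = 0.256). Mpc1 was far lower, at 5.37, 3.40 and 7.58 TPM against 4.53, 5.69 and 5.63 TPM, and the scrambled libraries alone covered the whole range of the Urod shRNA libraries. Its interval ran from -0.51 to 0.53, so a change of either sign by up to about that size could not be seen. Of its 51-base stretches, the length of a read, 26.6% occur letter for letter in transcripts of other annotated genes, mainly the pseudogene Mpc1-ps, and its level is uncertain.

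Within the pyruvate dehydrogenase complex, which makes acetyl-CoA from pyruvate, 4 of 5 subunit genes rose and the remaining one, Pdha1, did not pass. The share called was 80.0%, near the 74.7% of all genes tested, of which 38.5% rose and 36.2% fell. The largest rise in this complex was that of Dld, a lipoamide dehydrogenase shared with the 2-oxoglutarate and branched-chain keto acid dehydrogenases. Dld measured 369, 348 and 341 TPM in scrambled libraries and 608, 557 and 570.4 TPM in Urod shRNA libraries. Every Urod shRNA library lay far above every scrambled one, and the mean rose 1.64-fold, from 353 ± 14.8 to 578 ± 26.1 TPM (SD of n = 3), with a log2 change of 0.71 (SE 0.04; limma, adjusted p = 4.61e-06). Pdhx, which anchors that dehydrogenase to the core, measured 24.2, 24.5 and 23.3 TPM against 35.6, 35.1 and 33.3 TPM, a 1.44-fold rise (limma, adjusted p = 1.8e-05). The core acetyltransferase gene Dlat rose 1.18-fold, and Pdhb, which encodes the beta subunit of the first enzyme, 1.21-fold (limma, adjusted p = 0.000401 and 0.0014). Of the 51-base stretches of Pdhb, 29.8% recur in other transcripts, and its value is uncertain.

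Pdha1, the partner of Pdhb and the subunit whose phosphorylation switches the complex off, did not rise with them. It measured 406, 393 and 384 TPM in scrambled libraries and 375, 379 and 371 TPM in Urod shRNA libraries. All 3 Urod shRNA values lay below the scrambled ones, by little, with a log2 change of -0.07 (limma, adjusted p = 0.0526). Of its 51-base stretches 16.8% are shared, mostly with the neighbouring gene Map3k15, which makes this value uncertain. The phosphatases that reactivate the complex were not higher either. Pdp1, the calcium-stimulated form, measured 63.6, 61.2 and 63.7 TPM in scrambled libraries and 41.7, 40.9 and 39.9 TPM in Urod shRNA libraries. The groups were well apart, with a fall of 0.61 on the log2 scale (SE 0.03; limma, adjusted p = 2.75e-06). Pdp2 was much lower, at 6.45 to 8.10 TPM against 5.68 to 7.44 TPM, with overlapping groups (log2 change -0.17, 95% interval -0.42 to 0.08).

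The other route of pyruvate, through oxaloacetate, was higher at both enzymes listed. Pcx, the pyruvate carboxylase that refills the cycle, measured 35.7, 41.5 and 42.6 TPM in scrambled libraries and 54.1, 60.8 and 61.1 TPM in Urod shRNA libraries. No values overlapped, and the rise was 1.47-fold (log2 change 0.55, SE 0.08; limma, adjusted p = 0.000354). Pck2, the mitochondrial phosphoenolpyruvate carboxykinase, draws oxaloacetate off towards phosphoenolpyruvate and is known as a target of the stress factor ATF4. It measured 39.6, 44.4 and 41.9 TPM in scrambled libraries and 82.4, 85.6 and 84.9 TPM in Urod shRNA libraries. Its mean rose 2.01-fold, from 42.0 ± 2.44 to 84.3 ± 1.64 TPM (SD of n = 3), with a log2 change of 0.99 (SE 0.05; limma, adjusted p = 1.12e-06), the largest rise among the members. Pck2 (ENSMUSG00000040618.7) is a protein-coding gene on the plus strand of chromosome 14, from 55540266 to 55551242 on GRCm38. The cytosolic isoenzyme gene Pck1 was at most 0.0331 TPM in any library.

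Of the 33 members 31 had promoter windows in RefSeq for GRCm38.p6, 39 windows in all, each from 250 bases before to 50 bases after a gene's start. They were searched on both strands for TGATGNAAT, a site of ATF4 with C/EBP, for TCAAGGTCA, a site of ERR-alpha, and for the palindromic NRF1 motif, and 0 windows held any of them. In all 32851 windows of that length the shares were 0.965%, 0.423% and 0.971%, and in windows of genes tested 0.458%, 0.273% and 2.14%. The shorter TGATGNAA, which every TGATGNAAT contains and which was added after the data were seen, occurred in 2 of the 39 windows, against 3.97% of all windows and 2.25% of the 11354 windows of genes tested. These were the windows of Pck2 and of Got1, the cytosolic aspartate aminotransferase, and both stretches are shown because the genes differ in their change, 0.99 for Pck2 and 0.06 for Got1 on the log2 scale. They are chr14:55540137-55540196 on the plus strand and chr19:43524674-43524733 on the minus strand of GRCm38.p6, printed along the gene's strand. Capitals mark the match, which lies on the opposite strand and reads TGATGTAA and TGATGCAA there.
Pck2: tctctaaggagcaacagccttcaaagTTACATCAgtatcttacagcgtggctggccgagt
Got1: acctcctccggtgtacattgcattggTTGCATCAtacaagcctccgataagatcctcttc
The match begins 103 bases before the start of Pck2 and 102 bases before that of Got1, and it is a description of these letters only. The members' windows had a median GC content of 61.0%, against 60.7% for windows of genes tested, and 30 of 39 had a ratio of observed to expected CpG over 0.6, against 69.7% of windows of genes tested.

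**Figure D2:**
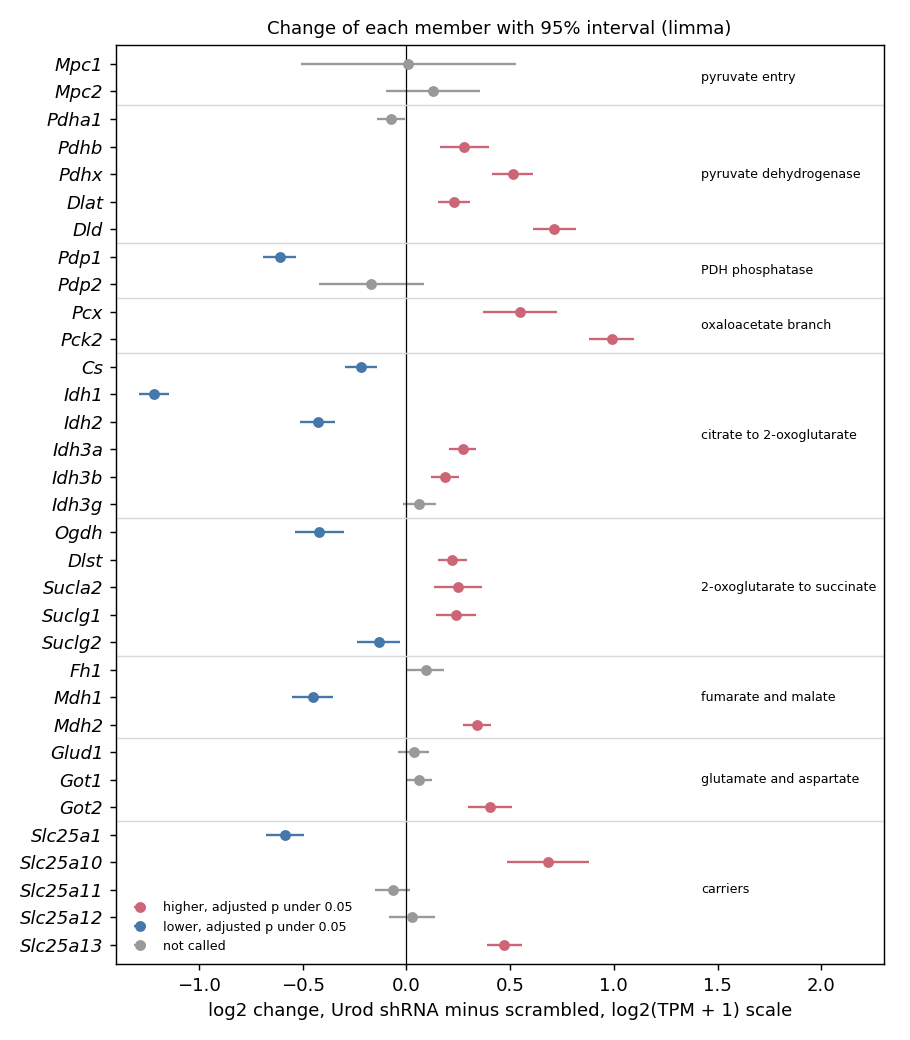
Log2 change of each member on the log2(TPM + 1) scale, Urod shRNA minus scrambled, with its 95% interval from limma, in order of role (n = 3 libraries per group). Red marks the 15 members that rose, blue the 8 that fell and grey the 10 that did not pass, with Idh1 farthest to the left and Pck2 farthest to the right.

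From citrate to 2-oxoglutarate, the NADP-linked isocitrate dehydrogenases fell while subunits of the NAD-linked enzyme rose slightly. Idh1, the cytosolic and peroxisomal NADP-linked enzyme, measured 218, 221 and 211 TPM in scrambled libraries and 94.6, 93.1 and 90.4 TPM in Urod shRNA libraries. The groups were separated by more than 100 TPM. This was the largest change among the members, 2.34-fold lower, from 217 ± 5.14 to 92.7 ± 2.14 TPM (SD of n = 3), with a log2 change of -1.22 (SE 0.03; limma, adjusted p = 1.09e-07). On the log2(TPM + 1) scale it was the only member past a change of 1 in size, with Pck2 just short of it. Idh1 (ENSMUSG00000025950.16) lies on the minus strand of chromosome 1, from 65158616 to 65186500 on GRCm38. Idh2, its mitochondrial counterpart, measured 244, 252 and 250.2 TPM against 177, 192 and 186 TPM, a fall of 0.43 on the log2 scale (limma, adjusted p = 2.37e-05).

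Idh3a, Idh3b and Idh3g encode the NAD-linked enzyme of the cycle proper, with Idh3a as its catalytic subunit. Idh3a rose 1.21-fold, from 132 ± 0.744 to 159 ± 3.03 TPM, and Idh3b 1.14-fold, from 172 ± 3.49 to 195 ± 3.20 TPM (SD of n = 3; limma, adjusted p = 5.54e-05 and 0.000613). For Idh3g the groups overlapped, at 200.5 to 212 TPM and 210.1 to 222 TPM (log2 change 0.06, 95% interval -0.02 to 0.14). Citrate synthase, Cs, which opens the cycle, fell by 0.22 on the log2 scale, from 360 ± 5.55 to 309 ± 10.8 TPM (SD of n = 3; limma, adjusted p = 0.000537).

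The steps around succinyl-CoA, the intermediate drawn on by heme synthesis, were split between subunits. In the 2-oxoglutarate dehydrogenase complex, which makes succinyl-CoA, the first enzyme Ogdh measured 66.4, 70.1 and 68.7 TPM in scrambled libraries and 47.6, 54.2 and 51.2 TPM in Urod shRNA libraries. It was lower in all 3, by 0.42 on the log2 scale (SE 0.05; limma, adjusted p = 0.000157). The core succinyltransferase Dlst went the other way, from 147, 151 and 148 TPM to 169, 178 and 173 TPM (log2 change 0.22; limma, adjusted p = 0.000296), as did the shared subunit Dld described above. Ogdh and the core subunit thus changed in opposite directions within 1 complex. Ogdhl, a relative of Ogdh outside the members, lay at 35.3 and 37.5 TPM and did not pass (log2 change 0.08; limma, adjusted p = 0.135).

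Succinyl-CoA synthetase turns succinyl-CoA into succinate, with the alpha subunit Suclg1 and either the ATP-forming beta subunit Sucla2 or the GTP-forming Suclg2. Suclg1 measured 194, 180 and 182 TPM in scrambled libraries and 227, 212 and 218 TPM in Urod shRNA libraries, a 1.18-fold rise (limma, adjusted p = 0.0011). Sucla2 rose 1.19-fold, from 101, 89.9 and 91.9 TPM to 114, 108 and 114 TPM (limma, adjusted p = 0.0023). Suclg2 measured 35.9, 34.4 and 32.7 TPM against 31.6, 30.4 and 31.6 TPM, a fall of 0.13 on the log2 scale that passed the test narrowly (limma, adjusted p = 0.0258). That call was lost in 6 of 16 other settings, including without scrambled replicates 1 or 2 and without Urod shRNA replicates 2 or 3, where the adjusted p reached 0.0779. It also has 18.9% of its 51-base stretches in other transcripts, mainly the gene model Gm15163, and is uncertain.

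At the malate end of the cycle the mitochondrial and cytosolic enzymes parted. Mdh2, the mitochondrial malate dehydrogenase and the most abundant member, measured 609.9, 602 and 595 TPM in scrambled libraries and 752, 753 and 782 TPM in Urod shRNA libraries. It was higher in all 3, by 1.27-fold (log2 change 0.34, SE 0.03; limma, adjusted p = 2.19e-05). Mdh1, the cytosolic form, measured 405, 375 and 367 TPM against 286, 275 and 276 TPM, 1.37-fold lower (log2 change -0.45, SE 0.04; limma, adjusted p = 3.67e-05). Fh1, fumarate hydratase, lay at 155 to 166 TPM and 166 to 176 TPM, and its change of 0.09 on the log2 scale did not pass (limma, adjusted p = 0.0575).

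Glutamate enters the cycle through glutamate dehydrogenase or through the aminotransferases. Glud1, the dehydrogenase, lay at 184 to 195 TPM and 192 to 198 TPM, with overlapping groups (log2 change 0.04, 95% interval -0.04 to 0.11). Got2, the mitochondrial aspartate aminotransferase, measured 178, 194 and 184 TPM in scrambled libraries and 233, 256 and 247 TPM in Urod shRNA libraries. The groups did not overlap, with a 1.33-fold rise (limma, adjusted p = 0.000112). Because 46.7% of its 51-base stretches recur in other transcripts, mainly Gm10874, its value is uncertain. Got1, the cytosolic form, measured 225, 231 and 225 TPM against 233, 239.6 and 238 TPM, higher in all 3 Urod shRNA libraries but by only 0.06 on the log2 scale, which did not pass (limma, adjusted p = 0.073) and turned to -0.0073 with quantile normalization.

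Among the inner membrane carriers that link these pools, 2 rose, 1 fell and 2 did not pass. That is 60.0% called, below the 74.7% of all genes tested, of which 38.5% rose and 36.2% fell. Slc25a1, which exports citrate to the cytosol, measured 82.7, 88.3 and 88.5 TPM in scrambled libraries and 55.6, 58.5 and 57.9 TPM in Urod shRNA libraries. It was 1.51-fold lower, with groups far apart (log2 change -0.58, SE 0.04; limma, adjusted p = 6.58e-06). Slc25a10, the dicarboxylate carrier for malate and succinate, went from 13.7, 15.7 and 16.7 TPM to 23.1, 25.6 and 27.0 TPM, a 1.64-fold rise (limma, adjusted p = 0.000172). Slc25a11, the 2-oxoglutarate and malate carrier, lay at 67.8 to 73.1 TPM and 66.5 to 67.2 TPM (log2 change -0.07, 95% interval -0.15 to 0.02). The aspartate and glutamate carriers of the malate-aspartate shuttle, Slc25a12 and Slc25a13, have closely related sequences. Slc25a13 rose 1.39-fold, from 52.4 ± 1.63 to 73.1 ± 1.66 TPM (SD of n = 3; limma, adjusted p = 1.22e-05). Slc25a12 lay at 28.9 to 31.5 TPM and 29.7 to 31.8 TPM (log2 change 0.03, 95% interval -0.08 to 0.14).

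Ratios between paired genes were then taken within each library, since such a ratio does not depend on how that library was scaled. Of 7 pairs, 6 had groups that did not overlap, each with an exact two-sided permutation p of 0.10, the smallest that 3 against 3 libraries can give, so no pair could pass a threshold of 0.05 (adjusted over the 7 pairs, 0.117). Single genes did not overlap in 77.3% of cases. The ratio of cytosolic Mdh1 to mitochondrial Mdh2 was 0.665, 0.623 and 0.616 in scrambled libraries and 0.380, 0.366 and 0.353 in Urod shRNA libraries. Idh1 to Idh2 went from 0.892, 0.878 and 0.844 to 0.535, 0.485 and 0.486. Got1 to Got2 went from 1.27, 1.19 and 1.22 to 0.999, 0.936 and 0.963. In these 3 pairs, all with a cytosolic gene over its mitochondrial counterpart, the ratio was lower in each Urod shRNA library, by 1.73-fold, 1.74-fold and 1.27-fold. Because the value of Got2 is uncertain for its shared stretches, the last of these ratios is uncertain too.

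The remaining pairs are of genes within the mitochondrion. The ATP-forming Sucla2 over the GTP-forming Suclg2 stood at 2.82, 2.62 and 2.81 in scrambled libraries and at 3.60, 3.57 and 3.61 in Urod shRNA libraries, 1.31-fold higher. This ratio too is uncertain, through the shared stretches of Suclg2. Slc25a12 over Slc25a13 was 1.37-fold lower, and Pdp1 over Pdp2 1.35-fold lower. The ratio of Mpc1 to Mpc2 overlapped between groups (exact permutation p = 0.9).

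**Figure D3:**
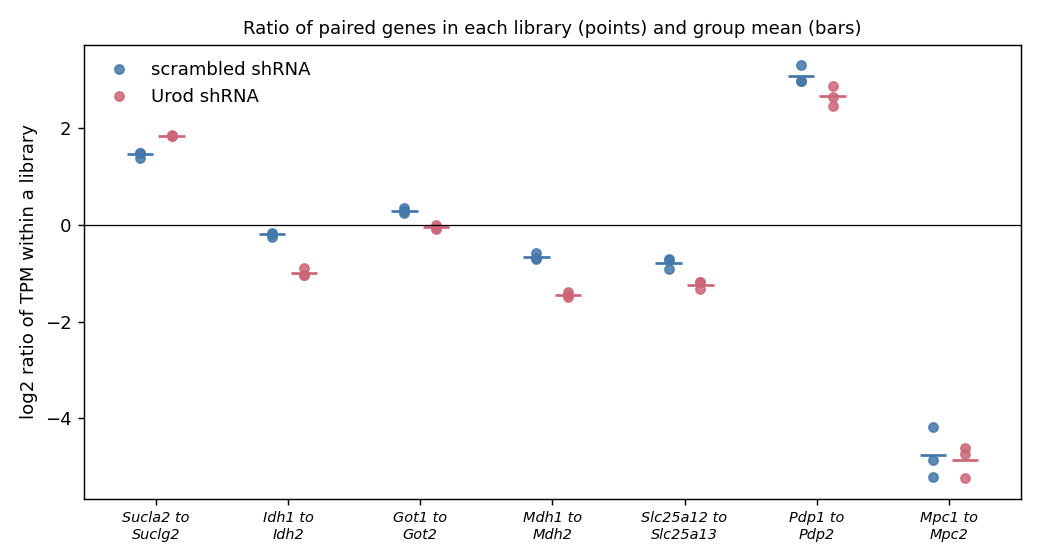
Log2 ratio of TPM within each library for the 7 pairs (points) with the group mean (bars), 3 libraries per group. The ratios of Idh1 to Idh2 and of Mdh1 to Mdh2 lie lower in every Urod shRNA library, that of Sucla2 to Suclg2 lies higher, and only the ratio of Mpc1 to Mpc2 overlaps.

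Other genes of the pathway were taken from 7 lists. Of 64 tested, 34 rose and 22 fell, or 87.5% called against 74.7% of all genes, with a median log2 change of 0.14. Of all genes tested, 38.5% rose and 36.2% fell, to be set beside the counts of each list. Genes that control or lipoylate the dehydrogenase complexes were split, 3 up and 3 down of 6 tested. The inhibitory kinase gene Pdk1 rose from 43.4 ± 0.543 to 58.2 ± 0.540 TPM and the kinase gene Pdk3 fell from 90.5 ± 5.75 to 75.9 ± 3.97 TPM (SD of n = 3; limma, adjusted p = 9.58e-06 and 0.0043). Lipt1, a lipoyl transferase, fell by 0.76 on the log2 scale. Pdk2 and Pdk4 were under 0.1 TPM in every library and were not tested. Of 7 tested genes at other steps of the cycle, 3 rose and 2 fell. Among them the succinate dehydrogenase subunits Sdhb (0.28), Sdha (-0.19) and Sdhc (-0.22) gave log2 changes of both signs, and Dhtkd1 was not tested.

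Glutamine and glutamate genes outside the members were mostly higher, 9 up and 3 down of 14 tested, with a median log2 change of 0.20. That is 85.7% called, against 74.7% of all genes tested, of which 38.5% rose and 36.2% fell. Slc1a5, the main glutamine importer of many tumour cells, measured 84.6, 89.5 and 87.5 TPM in scrambled libraries and 171, 185 and 181 TPM in Urod shRNA libraries. That is a 2.05-fold rise with groups far apart (limma, adjusted p = 4.62e-07). Slc38a1, another neutral amino acid importer, rose 1.78-fold, whereas its relative Slc38a2, more abundant than either, fell from 405 to 325 TPM (log2 change -0.31; limma, adjusted p = 2.12e-05). Oat, ornithine aminotransferase, also fell, by 0.49 on the log2 scale. Slc25a18 was not tested.

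The list of exits of pyruvate, malate and citrate also holds genes that form pyruvate, activate acetate or act as a transhydrogenase. Of its 10 tested genes, 6 rose and 4 fell, beside 38.5% and 36.2% of all genes tested. One of the 4, the acetyl-CoA synthetase gene Acss1 (1.82 and 0.270 TPM), reached the mean needed for testing only through the scrambled libraries, so its call was favoured by the filter, here and in the count over all lists. The cytosolic NADP-linked malic enzyme Me1 measured 394, 371 and 372 TPM in scrambled libraries and 175, 166 and 171 TPM in Urod shRNA libraries, 2.22-fold lower (limma, adjusted p = 2e-07). Its mitochondrial relative Me2 went the other way, from 108 ± 1.24 to 164 ± 1.74 TPM (SD of n = 3), and Ldha, the lactate dehydrogenase, rose 1.63-fold. Me3, Ldhb and Pck1 were not tested. The list for the use of succinyl-CoA and its other sources also holds genes that do neither, among them Slc25a38 and Aldh5a1. Of its 9 tested genes, 4 rose and 4 fell. Alas1, which joins succinyl-CoA to glycine, rose from 79.0 ± 2.80 to 172 ± 3.39 TPM (SD of n = 3), and Slc25a38, the mitochondrial glycine carrier for that step, rose 1.48-fold. Aldh5a1, which makes succinate from a breakdown product of GABA, fell by 0.72 on the log2 scale. Alas2 and Abat were not tested, and of the synonyms Mut and Mmut the table holds Mut.

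Genes of cofactor supply and mitochondrial carriers were mostly lower, 5 down and 1 up of 8 tested, with a median log2 change of -0.35. Nadk2, the mitochondrial NAD kinase, measured 188, 191 and 192 TPM in scrambled libraries and 72.7, 74.6 and 73.6 TPM in Urod shRNA libraries, 2.58-fold lower (limma, adjusted p = 4.03e-08). Slc25a42, a mitochondrial coenzyme A carrier, fell by 1.08 and Coasy, which completes coenzyme A synthesis, by 0.54 on the log2 scale. Ucp2 was not tested. Genes of general mitochondrial content were mostly higher, 8 up and 1 down of 10 tested, with a median log2 change of 0.38. Beside both these lists, 38.5% of all genes tested rose and 36.2% fell. The prohibitin genes Phb (2.02-fold) and Phb2 (1.48-fold) and the matrix protease gene Lonp1 (1.49-fold) were among those that rose. Vdac1, the most abundant of the 10, fell from 670.4 to 584.9 TPM (limma, adjusted p = 0.000306). Tomm20 did not pass (log2 change -0.04). Rn45s, the ribosomal RNA precursor, stood at 1313 ± 181 and 3782 ± 297 TPM (SD of n = 3). The part of either in the members' changes was not tested.

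**Figure D4:**
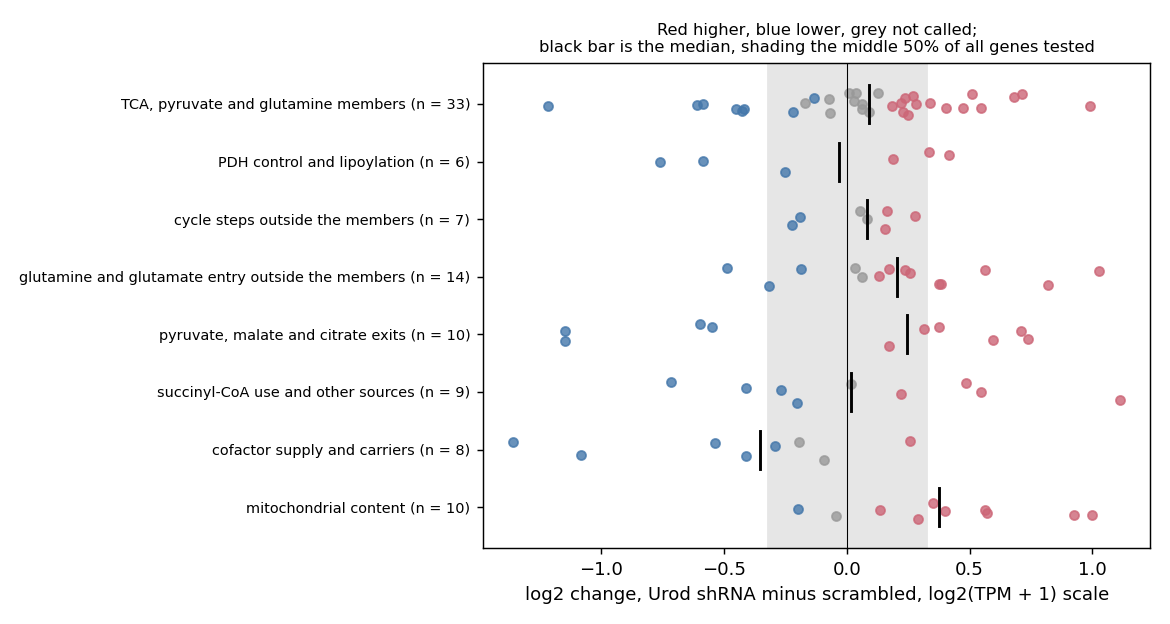
Log2 changes on the log2(TPM + 1) scale, Urod shRNA minus scrambled, of the 33 members and of the tested genes of the 7 other lists, with a black bar at each median and grey shading from -0.32 to 0.33, the middle 50% of all genes tested. The members spread to both sides around a median of 0.09. The mitochondrial content genes lie mostly to the right and the genes of cofactor supply and carriers mostly to the left.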

How the data were processed

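Per the labels' protocols, polyadenylated RNA was sequenced as 51-bp single-end reads, mapped to mm10 with TopHat, filtered at a mapping quality of 10, and quantified with Cufflinks and with Cuffdiff, whose version was 2.1.1. The table the authors deposited is named as normalized counts, but each library sums to 1000000 and the smallest steps differ between genes, so it was read as TPM, which keep no depth or counting error. A second table from the authors gives, per the file headers, p-values with FDR, a score named LR, and log2 values for fold change and CPM; the sources used here do not name its test.

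Of 19617 rows, 27 carry a date in place of a name and were left out (0.231% to 0.241% of TPM). Genes averaging 1 TPM or more were fitted as log2(TPM + 1), which understates changes of low genes, with limma 3.58.1 in R 4.3.3 (variance trend, two-sided, threshold 0.05). The procedure was tested on simulated data in which most genes were unchanged. That does not cover data such as these, with 74.7% of genes called. Ratios were tested by exact permutation (scipy 1.17.1). Shared 51-base stretches were counted for the members only, in GENCODE M21 transcripts, which also gave coordinates. Copies outside those transcripts were not counted. Levels of list genes may be uncertain in the same way. The members and lists were chosen with earlier results of these data known. Named genes were all members, Urod, Rn45s and, per pathway list, the 3 with the smallest adjusted p and those not tested. Krt8, Vim, Epcam, Cdh1, Ptprc, Lyz2, Cd68, Cd14, Pecam1, Gapdh, Slc38a2, Acss1, Ogdhl, Vdac1, Tomm20 and the genes of the closing observations were chosen after their values were seen. Pseudocount, filter, scaling and variance model were varied in turn, the replicate number was added as a block, and each library was left out once.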

Additional observations from a re-analysis of the deposited data

How the results depend on the processing

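Of the 23 called members, 22 kept their call and direction in all 16 other settings run for single genes, and Suclg2 is the exception (adjusted p between 0.0107 and 0.0779). Leaving out each library gave 15 to 16 members higher and 7 to 9 lower, and 8263 to 8962 genes called. Over the scalings, the median of all genes stayed between 0.01 and 0.03. Among members that did not pass, signs turned with quantile normalization for Idh3g (-0.0050), Glud1 (-0.046) and Got1 (-0.0073), for Mpc1 with a pseudocount of 10 (-0.0075) and with trimmed-mean scaling (-0.00016). Without single libraries Mpc1 ranged from -0.24 to 0.24 and Slc25a12 from -0.0061 to 0.060. Mpc2 (0.05 to 0.21), Pdp2 (-0.26 to -0.09), Glud1 (0.02 to 0.06), Slc25a11 (-0.09 to -0.04) and Idh3g (0.04 to 0.08) moved by over 1.5 times. Fh1 passed without scrambled replicate 1 (adjusted p = 0.0144) and Pdha1 without scrambled replicate 3 (adjusted p = 0.0394). Pdha1 (-0.16) and Slc25a11 (-0.11) passed as lower with quantile normalization. The difference in log2 ratio of Mpc1 to Mpc2, -0.11 as reported, was 0.051 with quantile normalization and lay between -0.33 and 0.18 without single libraries. The cause of these changes was not tested.

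Replicate numbers did not meet the bound for paired libraries, since deviations of same-numbered libraries correlated at 0.42, 0.21 and 0.095, the last under 0.1. Scrambled replicate 3 correlated best with Urod shRNA replicate 2 (0.20). Seen from the other group, each Urod shRNA library correlated best with the scrambled library of its own number. For Urod shRNA replicates 2 and 3 this was narrow (0.21 against 0.20 and 0.095 against 0.080). A pairing is thus neither shown nor excluded. With the replicate number as a block, 19 members were higher and 10 lower, and 9882 genes were called. The members added were Mpc2, Idh3g, Fh1, Got1, Pdha1 and Pdp2. TPM give no counting error, which limits what can be said of Mpc1 and Pdp2, the lowest members.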

Other observations

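Genes whose enzymes can make NADPH, or NADP from NAD, were set side by side after their values were seen. This is a description with no test of the group. Lower in Urod shRNA libraries were Idh1 (log2 change -1.22), Idh2 (-0.43), Me1 (-1.15), the transhydrogenase gene Nnt (-0.60) and the mitochondrial NAD kinase gene Nadk2 (-1.36). H6pd, which makes NADPH inside the endoplasmic reticulum, was lower as well (-1.09), as was the folate enzyme gene Mthfd2l (-0.24). Higher were the pentose phosphate genes G6pdx (0.36) and Pgd (0.64) and the folate genes Mthfd1 (0.99) and Aldh1l2 (0.60). The folate gene Mthfd2 (0.55) and Me2 (0.59), which can each work with either cofactor, were higher too. The cytosolic NAD kinase gene Nadk, at 0.27, went in the opposite direction to Nadk2. Glud1, which also takes either cofactor, stood at 0.04. All of these genes except Glud1 passed the test over all genes (limma, adjusted p of at most 0.00415), as did 74.7% of the genes tested.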
